A study of Homo sapiens with 10 samples.

Results

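The transcriptomes of both SAMHD1-KO clones, A1 and A2, were compared directly with each other across all genes, on and off chromosome 22. The comparison used 4 of the 10 libraries of the study, namely 2 of clone A1 and 2 of clone A2 from experiments 15 and 16, and was chosen by clone and experiment number alone. Of 13920 listed genes, 318 lay on chromosome 22, 13567 lay elsewhere and 35 had no position in the gene table. All libraries came from spheroids of a human line labelled T47D, grown from cells seeded on low-attachment round-bottom plates in RPMI medium and collected on day 4. The 3 groups were wild-type cells (WT) and the KO clones A1 and A2, which had received a CRISPR-Cas9 plasmid aimed at SAMHD1 exon 5, a part of the HD domain. WT and clone A1 each had 4 libraries, from experiments 10, 11, 15 and 16, whereas clone A2 had libraries from the last 2 of these experiments alone. Each KO genotype is thus represented by 1 clone, and a difference between A2 and A1 cannot be told apart from a difference between any 2 single-cell-derived populations. The study's methods call the samples biological duplicates and do not say whether those came from separate cultures, so p-values measure the spread between these libraries.

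SAMHD1 hydrolyses deoxynucleoside triphosphates (dNTPs) and thereby limits the building blocks available for DNA synthesis. A KO clone is the progeny of 1 edited cell, and independent clones are compared to separate what accompanies the edit from what belongs to a single clone. Chromosome 22 carries genes of unrelated function, among them subunits of the translation, chromatin and DNA repair machineries and several transcription factors.

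The 4 clone libraries held 43082198 to 49029901 counts, and counts were scaled to library size (CPM) with TMM factors, which balance libraries by the bulk of their genes. CPM are not corrected for gene length, so the tests compared libraries and not genes. Where genes are ranked or set beside each other by CPM, as for markers and for chromosome 22, the order also reflects gene length. T47D is described as a luminal epithelial breast cancer line, and several of its defining markers were low in all 10 libraries. The epithelial genes CDH1, EPCAM and ESR1 reached at most 2.16, 1.78 and 1.59 CPM and KRT19 was not among the listed genes, whereas the mesenchymal VIM lay between 1180 and 1520 CPM and CDH2 between 118 and 158 CPM. IRS4, an insulin receptor substrate chosen after its values were seen, lay between 1330 and 1710 CPM. Of the other luminal markers, KRT18 had 36.3 to 60.3 CPM, KRT8 3.10 to 9.07 CPM, PGR 15.4 to 20.7 CPM, GATA3 15.4 to 24.8 CPM and FOXA1 14.1 to 26.8 CPM. The basal markers KRT5, KRT14, KRT17 and TP63 were not among the listed genes. The cells are therefore named by clone and not by cell type. The summed level of 8 listed luminal markers of 9 was 106 to 108 CPM in clone A1 and 102 to 106 CPM in clone A2, and that of 5 listed basal or mesenchymal markers of 9 was 1680 CPM in both A1 libraries and 1630 to 1640 CPM in clone A2. Of 14 markers of leukocytes, fibroblasts and endothelium 6 were listed, with PTPRC, CD3E, MS4A1, PECAM1 and CDH5 not among the listed genes, and 0 of the 6 were called between the clones by edgeR, DESeq2 or limma-trend (1 at an unadjusted p under 0.05). In bulk RNA, fewer cells of a type and less RNA per cell cannot be told apart.

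The targeted gene differed between the clones. Genes were tested with the quasi-likelihood test of edgeR, and a gene was called when its Benjamini-Hochberg adjusted p over all 13920 genes was under 0.05. SAMHD1 (NCBI gene 25939, chromosome 20 from 36889773 to 36951708, GRCh38) had 6.44 and 6.15 CPM in clone A1 and 23.6 and 20.2 CPM in clone A2, against 49.8 and 56.4 CPM in WT of the same experiments. Both clones thus lay below WT without overlap, and the residual transcript was higher in clone A2 than in clone A1 (log2 fold change 1.79, SE 0.105, edgeR adjusted p = 5.08e-08). The level of clone A1 was not constant, since its libraries of experiments 10 and 11 had 22.5 and 23.0 CPM, the range of clone A2. The effect of clone A1 against WT changed by −1.81 (SE 0.128, edgeR adjusted p = 1.22e-06) between the experiment pairs. Counts per gene show neither the edited sequence nor the protein. Among 31 enzymes of dNTP supply, SAMHD1 was the only member called (3.23%, against 4.43% of all genes off chromosome 22), and the median log2 fold change of the list was −0.0281. With all 10 libraries in 3 groups, SAMHD1 was not called between the clones.

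In all, 858 of 13920 genes (6.16%) differed between the clones at an edgeR adjusted p under 0.05. Clone A2 was lower in 579 genes (4.16% of those tested) and higher in 279 genes (2.00%), and 2786 genes had an unadjusted p under 0.05. Chromosome 22 held 255 of the 858 calls, which is 29.72% of all calls and 44.04% of those lower in clone A2. The root mean square difference in log2 CPM between libraries of different clones was 0.322 to 0.341, against 0.259 between both A1 libraries and 0.234 between both A2 libraries. Over chromosome 22 alone it was 0.609 to 0.745 between clones and 0.317 and 0.365 within clones A1 and A2. The count of calls depended on single libraries. It was 497 without clone A1 of experiment 15, 514 without clone A2 of experiment 15 and 557 without clone A2 of experiment 16, where the remaining library of the clone was assumed to vary like the other groups. It was 216 when all 10 libraries entered as 3 groups, so that clone A1 of experiments 10 and 11 counted with that of experiments 15 and 16. Clone A2 has no libraries of experiments 10 and 11, so levels that moved between the experiment pairs in WT too enter that count.

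Genes of chromosome 22 were lower in clone A2 almost without exception. Of 318 genes, 255 (80.2%) were called lower and 0 were called higher by edgeR, against 4.16% called lower among all genes. At an unadjusted p under 0.05, 286 were lower and 1 was higher, and DESeq2 and limma-trend likewise called 0 genes higher. The median log2 fold change was −0.509, a ratio of 0.703, with an interquartile range of −0.617 to −0.422. By comparison, the 13567 genes with a position on other chromosomes had a median of 0.00472. A fold change below 0 was found for 313 genes (98.4%) of chromosome 22, and 244 of them (76.7%) lay within 0.2 of the chromosome median. Both A2 libraries lay below both A1 libraries in 296 genes and above them in 1 gene, whereas over all genes such separation occurred in 24.3% downwards and in 24.3% upwards. The distribution of chromosome 22 was shifted as a whole, as the plot of fold changes on and off chromosome 22 shows.

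**Figure D1:**
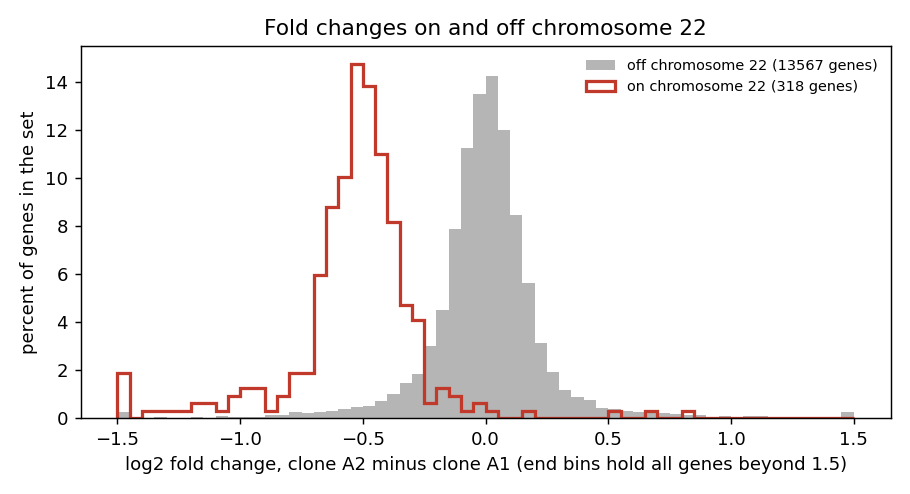
Distribution of log2 fold changes of clone A2 minus clone A1, in percent of the genes of each set, for 318 genes on chromosome 22 (red line) and 13567 genes on other chromosomes (grey bars). The red distribution is centred at −0.509 and the grey one at 0.00472, and the end bins collect all genes beyond the axis.

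The shift was present in both A2 libraries and in no other. Relative to WT of experiments 15 and 16, the median of chromosome 22 was −0.455 and −0.525 in clone A2 of experiments 15 and 16. In clone A1 it was −0.0309, 0.00335, 0.0172 and 0.00537 in experiments 10, 11, 15 and 16, and WT lay between −0.0221 and 0.114. Chromosome 22 received 1.495% and 1.477% of the counts in the A2 libraries and at least 1.957% in each of the other 8 libraries. Within experiment 15 the median difference between the clones was −0.482 and within experiment 16 it was −0.537, while the median difference between replicates was −0.0126 for clone A1 and −0.0678 for clone A2. An exact permutation test over 2 and 2 libraries cannot fall below p = 0.333, so the shift is given as a description.

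**Figure D2:**
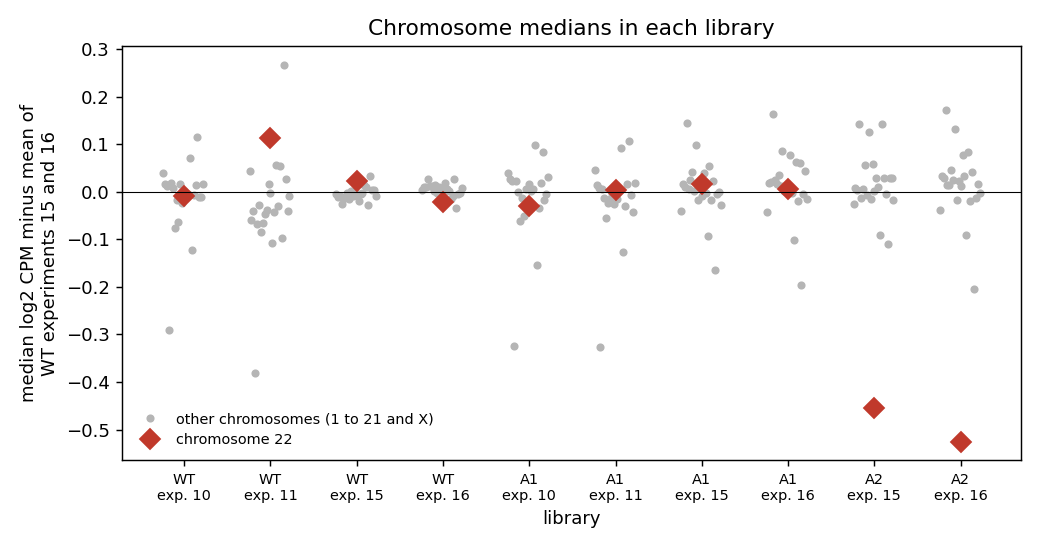
Median over the genes of a chromosome of log2 CPM minus the mean of WT in experiments 15 and 16, for each of the 10 libraries on the horizontal axis. Red diamonds are chromosome 22 and grey points the other chromosomes, and only the A2 libraries place chromosome 22 near −0.5 (−0.455 and −0.525).

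The shift was found in every part of the chromosome with listed genes. In bins of 5 Mb with more than 1 gene, the median lay between −0.478 and −0.541, and 72.7% to 87.7% of the genes in a bin were called lower. Among 154 regions of 20 Mb with at least 20 genes across the genome, 3 had a median beyond 0.15, and these were the 3 regions of chromosome 22. The other regions lay between −0.0678 and 0.11. The medians of the other chromosomes ranged from −0.0281 for chromosome 13 to 0.0598 for chromosome 16, and 2.41% to 7.16% of their genes were called. Beyond 0.15, no region outside chromosome 22 was displaced in either direction.

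**Figure D3:**
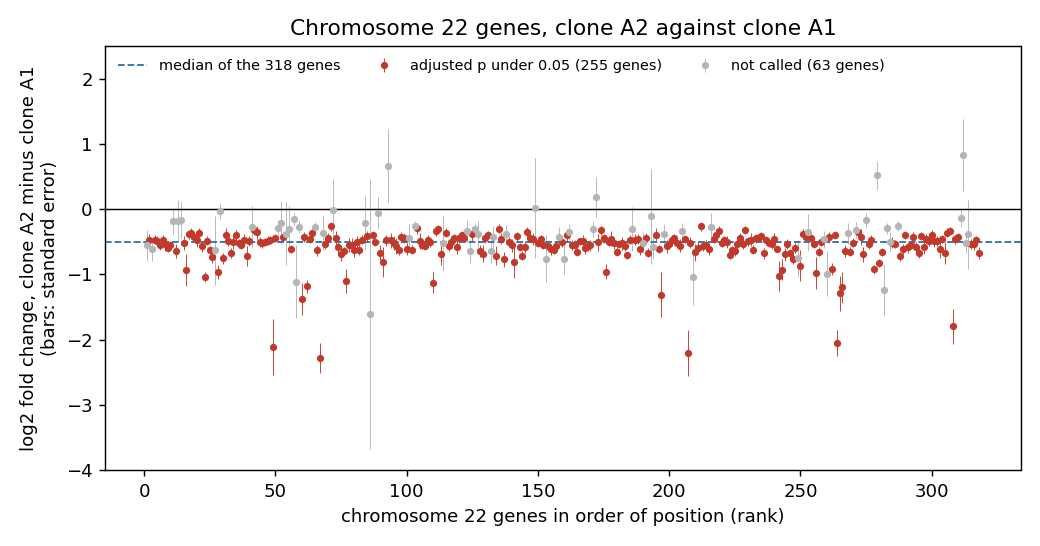
Log2 fold change of clone A2 minus clone A1, with standard errors as bars, for the 318 genes of chromosome 22 ordered by position. Red points are the 255 called genes and grey points the 63 genes not called, and the dashed line marks the median of −0.509, along which the genes lie over the whole chromosome.

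The share of chromosome 22 genes that were called rose with their expression level. In the lowest expression tertile 53 of 106 genes (50%) were called lower with a median of −0.549, in the middle tertile 97 of 106 (91.5%) with a median of −0.523, and in the highest 105 of 106 (99.1%) with a median of −0.472. The median standard error fell from 0.174 to 0.066 between the lowest and the highest tertile. Of the 63 genes not called, 5 had a fold change above 0, and all 5 were under 4 CPM in each clone library. Among them RIBC2 had 2.70 and 1.70 CPM in clone A1 and 3.39 and 2.93 CPM in clone A2 (0.52, SE 0.219, edgeR adjusted p = 0.196). GNB1L (−0.03, SE 0.12) and SCO2 (−0.14, SE 0.13), a mitochondrial copper chaperone gene that overlaps TYMP, had smaller errors and were likewise not called. These 3 genes were chosen after their values were seen.

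The 10 genes of chromosome 22 with the highest CPM were all called lower in clone A2, although they serve unrelated processes. RPL3, a protein of the large ribosomal subunit, had 2345 and 2227 CPM in clone A1 and 1941 and 1870 CPM in clone A2, with a log2 fold change of −0.27 (SE 0.064, edgeR adjusted p = 0.0198). It had the smallest fold change of the 10 genes, followed by the RNA-binding protein gene EWSR1 (−0.30, edgeR adjusted p = 0.00338). EIF3L, a subunit of translation initiation factor eIF3, had 358 and 359 CPM against 224 and 217 CPM and the largest one (−0.70, edgeR adjusted p = 9.12e-07). The cytokine gene MIF, the RNA helicase gene DDX17, ATF4, XRCC6, the Hsp70 cofactor gene ST13, the non-muscle myosin gene MYH9 and the plexin receptor gene PLXNB2 lay between these, from −0.62 for ST13 to −0.45 for ATF4.

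Lists of chromosome 22 genes grouped by role were described next, with 0 genes higher in each. Their members lie on chromosome 22 with 1 exception, so that 72.2% to 90.9% called lower per list is to be read against the 80.2% of the whole chromosome and not as a result about the roles. For protein synthesis and RNA processing 20 of 22 genes were lower (median −0.463, 1 of the 22 lying on another chromosome), among them EIF4ENIF1, a carrier of the cap-binding protein eIF4E (−0.71), and EIF3D (−0.49). For DNA repair, replication and chromatin 18 of 21 were lower (median −0.533). SMARCB1, a core subunit of SWI/SNF remodelling complexes, had 128 and 124 CPM in clone A1 and 84.6 and 77.4 CPM in clone A2 (−0.64, edgeR adjusted p = 1.56e-05). CDC45, part of the replicative helicase, fell by 0.63, the Ran regulator RANBP1 by 0.55 and XRCC6, the Ku70 subunit of the end-joining machinery, by 0.52 on the log2 scale. Of 18 mitochondrial genes 13 were lower (median −0.481), including the outer membrane protein gene TSPO (−0.91), the mitochondrial thioredoxin gene TXN2 (−0.54) and FBXO7 (−0.56). The list also holds SLC25A17 (−0.70), which belongs to the mitochondrial carrier family but acts in peroxisomes. Of 26 genes of metabolism, secretion and cytoskeleton 23 were lower (median −0.544), such as the matrix protein gene FBLN1 (−0.83) and the lipid transfer protein gene PITPNB (−0.62). MRPL40 of the mitochondrial ribosome (−0.57) was lower too.

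Transcription and signalling regulators encoded on chromosome 22 were lower in 21 of 24 cases (87.5%, median −0.465), near the 80.2% of the chromosome. SREBF2, the transcription factor that activates sterol synthesis (chromosome 22 from 41833105 to 41907305), had 213 and 219.9 CPM in clone A1 and 142.3 and 143 CPM in clone A2, with 204 and 208 CPM in WT (−0.60, SE 0.0552, edgeR adjusted p = 5.88e-06). XBP1, a transcription factor of the unfolded protein response, had 65.3 and 62.1 CPM against 40.7 and 45.8 CPM (−0.56, edgeR adjusted p = 0.00015). ATF4, the effector of the amino acid response, had 558 and 509 CPM against 396 and 385 CPM (−0.45, edgeR adjusted p = 0.000169). The adaptor gene CRKL (−0.47) and the kinase gene CSNK1E (−0.67) were lower as well, and reads of CSNK1E may be shared with the read-through gene TPTEP2-CSNK1E.

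Some chromosome 22 genes with a mean of at least 2 CPM fell much further than the median. PRAME, a cancer-testis antigen gene, had 4.55 and 3.81 CPM in clone A1 and 1.05 and 0.683 CPM in clone A2 (−2.28, SE 0.224, edgeR adjusted p = 1.26e-05). SCUBE1, a secreted glycoprotein gene, had 4.04 and 4.29 CPM against 1.17 and 0.859 CPM (−2.05, SE 0.199). YPEL1 had 17.5 and 17.3 CPM against 7.96 and 7.44 CPM, with 10.8 and 10.3 CPM in WT, so that clone A1 lay above WT and clone A2 below it (−1.18, SE 0.0989). EMID1 (−1.12), DERL3 (−1.10), a gene of endoplasmic reticulum-associated degradation, and C22orf39 (−1.04) followed. In all, 14 called genes of the chromosome were beyond 1 on the log2 scale.

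The position of WT was then examined for the called genes, using contrasts that share the WT libraries and are given side by side. Against WT, 13.2% of all genes were called in clone A1 and 21.2% in clone A2. On chromosome 22, clone A2 was lower than WT in 259 genes and higher in 0, with a median of −0.488, whereas clone A1 was lower in 7 and higher in 12, with a median of 0.00966. Clone A1 of experiments 10 and 11 had a median of −0.0587 and, by edgeR, 0 called genes against its own WT (34 at an unadjusted p under 0.05), in a contrast that called 20 genes over all chromosomes. Of the 255 chromosome 22 genes called between the clones, 229 (89.8%) were called against WT in clone A2 alone and 4 in clone A1 alone. Off chromosome 22 (603 genes, including 2 without a position), clone A2 alone was called in 285 (47.3%), clone A1 alone in 104 (17.2%), both in the same direction in 67 (11.1%), both in opposite directions in 21 (3.48%) and neither in 126 (20.9%). Relative to WT of their own experiments, clone A1 of experiments 10 and 11 lay nearer to clone A1 of experiments 15 and 16 than to clone A2 in 220 of the 255 and in 423 of the 603 genes.

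Off chromosome 22, changes were divided between directions and mostly small. Of the 603 genes (4.43% of those off chromosome 22), 324 were lower (2.38%) and 279 higher (2.05%) in clone A2, the median absolute log2 fold change was 0.387, and 83 genes differed by more than 1 on the log2 scale. The count was 281 without clone A1 of experiment 15, 281 without clone A2 of experiment 15 and 347 without clone A2 of experiment 16. When the median of each 20-Mb region was removed from every library, limma-trend called 520 genes off chromosome 22. Called genes were distributed over all chromosomes, and adjacent genes changed in the same direction in 31 pairs, 4 runs of 3 and 1 run of 6 genes. The longest, on chromosome 11 from 62761580 to 62832051, held 6 genes higher in clone A2 (POLR2G, TMEM223, TAF6L, TMEM179B, NXF1 and STX5), with fold changes from 0.30 for NXF1 to 0.53 for STX5. A run of 3 genes, also higher in clone A2, lay close before it, from 62690262 to 62738636.

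Among genes off chromosome 22 with a mean of at least 2 CPM, LTBR and CPNE7 fell most. LTBR, the lymphotoxin beta receptor that feeds the non-canonical NF-kB pathway (chromosome 12 from 6375160 to 6391566), had 15.3 and 13.95 CPM in clone A1, 0.852 and 1.27 CPM in clone A2 and 2.22 and 2.48 CPM in WT (−3.77, SE 0.171, edgeR adjusted p = 5.98e-09). Clone A1 lay above and clone A2 below WT of the same experiments. In experiments 10 and 11, clone A1 had only 0.663 and 1.09 CPM, and WT had 0.651 and 1.16 CPM. CPNE7, a calcium-dependent phospholipid-binding copine (chromosome 16 from 89575758 to 89597246), had 12.6 and 11.2 CPM against 1.32 and 1.11 CPM, with 7.59 and 6.49 CPM in WT (−3.30, SE 0.159, edgeR adjusted p = 7.40e-09). The earlier A1 libraries, of experiments 10 and 11, held 7.63 and 6.83 CPM. CASP10, an initiator caspase gene, had 5.28 and 4.57 CPM against 1.48 and 1.48 CPM (−1.73, edgeR adjusted p = 2.14e-05), and the orphan receptor gene GPR50 19.6 and 18.3 CPM against 6.95 and 6.07 CPM (−1.55, edgeR adjusted p = 2.21e-07).

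Genes with higher levels were among those that fell. RADX, which encodes a single-stranded DNA-binding protein of replication forks (chromosome X from 106611978 to 106679439), had 123 and 129.9 CPM in clone A1 and 59.9 and 61.8 CPM in clone A2, with 113 and 125 CPM in WT (−1.06, SE 0.0669, edgeR adjusted p = 1.03e-07). ARMCX2 had 75.7 and 73 CPM against 34.7 and 35.6 CPM (−1.08, SE 0.0644, edgeR adjusted p = 5.63e-08). The adhesion molecule gene FLRT3 (−1.19), the retinol-binding protein gene RBP7 (−1.07), HSBP1L1 (−1.05) and ARHGEF35 (−1.48), whose reads are uncertain because of the near-identical ARHGEF5, were also lower without overlap.

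Among genes higher in clone A2, LGALS8, which encodes the carbohydrate-binding protein galectin-8 (chromosome 1 from 236518214 to 236552981), had 0.891 and 0.459 CPM in clone A1, 6.46 and 6.89 CPM in clone A2 and 2.80 and 3.37 CPM in WT (3.30, SE 0.235, edgeR adjusted p = 4.21e-07). NEFM, a neurofilament subunit gene, had 24.3 and 23.6 CPM against 63.1 and 59.4 CPM, with 35.3 and 36.6 CPM in WT (1.35, SE 0.0716, edgeR adjusted p = 1.82e-08). CPS1, the first enzyme of the urea cycle, had 9.53 and 9.43 CPM against 23.7 and 24.7 CPM (1.35, SE 0.0844, edgeR adjusted p = 1e-07), with 26.2 and 26.0 CPM in WT, so that clone A1 was called against WT and clone A2 was not. The Wnt-cleaving protease gene TRABD2A (1.42), ACAP1 (1.66), a regulator of endosomal recycling, TMEM200B (1.12) and the repressor gene HIC1 (1.10) were higher too.

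PLA2G4B, a phospholipase A2 gene, showed the largest rise among genes with a mean of at least 2 CPM, from 0.183 and 0.161 CPM in clone A1 to 6.46 and 5.80 CPM in clone A2 (5.13, SE 0.275, edgeR adjusted p = 1.82e-08). Its level did not follow clone or genotype in the remaining libraries, where it was 9.16 CPM in clone A1 of experiment 10, 3.45 CPM in WT of experiment 11 and at most 0.196 CPM in the others. The gene overlaps the read-through gene JMJD7-PLA2G4B, and GET1-SH3BGR (1.84) is itself a read-through gene, so the assignment of their reads is uncertain. Of genes called against WT in opposite directions, RSPO4, an enhancer of Wnt signalling, had 2.60 and 2.13 CPM in clone A1 and 0.0449 and 0.0586 CPM in clone A2 (edgeR adjusted p = 9.12e-07), where 2 and 3 counts in clone A2 set the fold, so that no fold is given. AMN, the partner of the cubilin receptor (2.86), and ZNF233 (2.27) were higher in clone A2 at levels under 2 CPM.

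**Figure D4:**
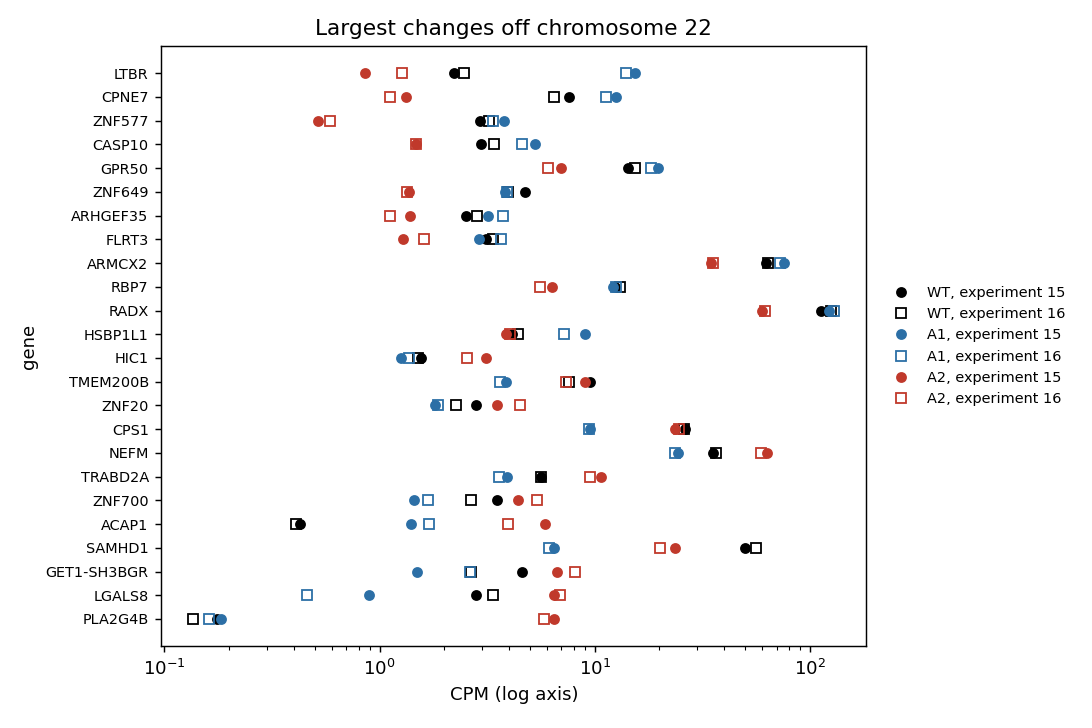
CPM on a log axis in the 6 libraries of experiments 15 and 16 for the genes with the largest change in each direction off chromosome 22, WT in black, clone A1 in blue and clone A2 in red, with filled circles for experiment 15 and open squares for experiment 16. The genes were chosen for lack of overlap, so both A2 symbols lie apart from both A1 symbols by selection. WT lies between the clones for LTBR, CPNE7, LGALS8 and NEFM.

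Zinc finger (ZNF) genes, most of which encode DNA-binding repressors in clusters on chromosome 19, moved in both directions. Off chromosome 22, 31 of 431 were higher and 7 lower, with a median of 0.0431, against 2.05% higher and 2.38% lower among all genes off chromosome 22. The neighbours ZNF577 and ZNF649 (chromosome 19, together from 51804442 to 51905017) fell together. ZNF577 had 3.79 and 3.37 CPM in clone A1 and 0.516 and 0.586 CPM in clone A2 (−2.69, SE 0.228, edgeR adjusted p = 2.66e-06), and ZNF649 had 3.84 and 3.92 CPM against 1.37 and 1.35 CPM (−1.52, edgeR adjusted p = 8.97e-05). ZNF682 had 3.31 and 2.94 CPM against 0.291 and 0.215 CPM (−3.63, edgeR adjusted p = 9.12e-07), and for all 3 genes clone A2 was called against WT and clone A1 was not. ZNF525 (1.07), ZNF700 (1.65) and ZNF20 (1.13) were higher in clone A2, but ZNF700 had 10.5 and 8.20 CPM in clone A1 of experiments 10 and 11 and a difference of −0.16 with all 10 libraries. The count of ZNF genes higher was 15 to 18 when any 1 of the 4 clone libraries was left out, and 3 with all 10 libraries.

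Sterol synthesis genes, which SREBF2 is known to activate, formed the list with the largest share of calls off chromosome 22. Of 24 measured genes 16 were lower in clone A2 and 0 were higher, with a median of −0.321, against 2.38% lower and a median of 0.00472 off chromosome 22. HMGCS1, the first committed step towards mevalonate (chromosome 5 from 43287470 to 43313412), had 306 and 316 CPM in clone A1, 164 and 176 CPM in clone A2 and 278 and 294 CPM in WT (−0.87, SE 0.0591, edgeR adjusted p = 2.21e-07). MSMO1, a sterol demethylase, had 116 and 114 CPM against 68 and 71.3 CPM (−0.73, edgeR adjusted p = 3.06e-06). IDI1, the isopentenyl diphosphate isomerase, had 120 and 121 CPM against 75.5 and 78.9 CPM (−0.64), and SQLE, the squalene epoxidase, 136 and 143 CPM against 93.7 and 92.4 CPM (−0.59). INSIG1 (−0.48), a retention factor for the sterol sensor, was lower as well. The list median was −0.303 in experiment 15 and −0.344 in experiment 16, while replicates differed by 0.0288 in clone A1 and −0.0479 in clone A2. Leaving out any clone library left 13 to 15 genes lower, and all 10 libraries together gave 7.

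**Figure D5:**
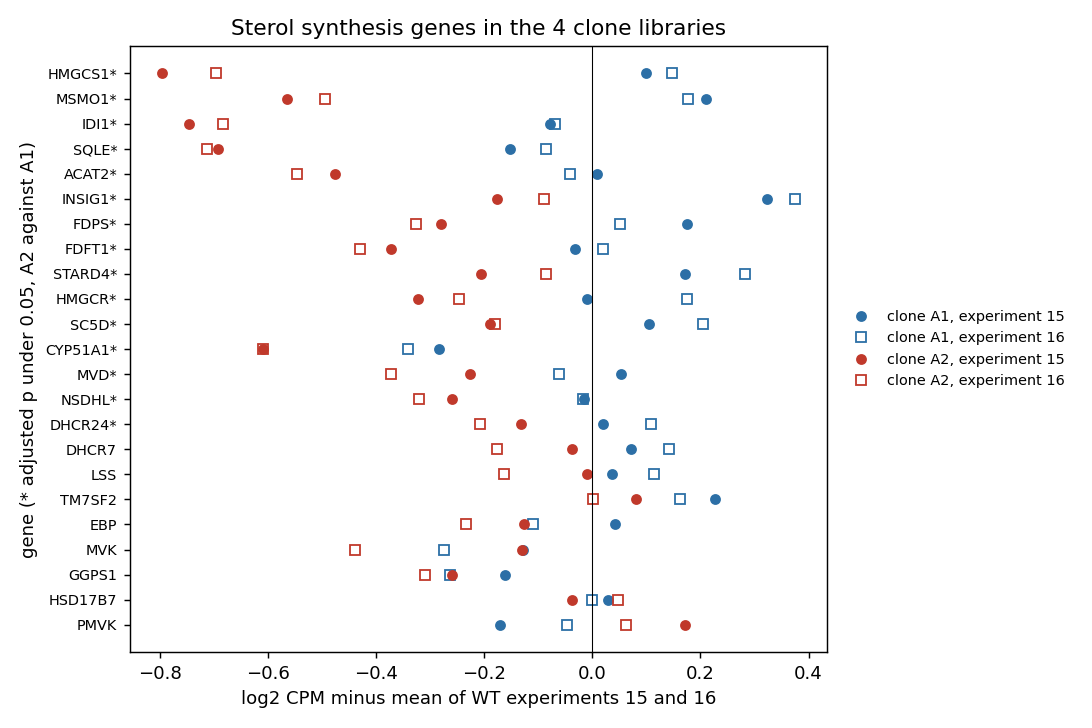
Log2 CPM of 23 sterol synthesis genes minus the mean of WT in experiments 15 and 16, for clone A1 (blue) and clone A2 (red), with filled circles for experiment 15 and open squares for experiment 16. An asterisk marks the 15 plotted genes called lower in clone A2, for which both red symbols lie left of both blue ones, and 1 gene of the 24 is not reported here.

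Promoters of sterol genes were inspected because these genes moved together. The 250 bases upstream of the annotated start were taken from RefSeq (GRCh38.p14), where 18 of the 24 genes matched, and were searched on both strands. The sterol regulatory element letters TCACNCCAC occurred in 0 of 18 windows and in 0.818% of the 11366 windows of measured genes. The letters CCAAT, the core of the site bound by NF-Y, a partner of SREBF2 at sterol promoters, occurred in 14 of 18 windows (77.8%) and in 34.9% of the windows of measured genes. They were present in 8 of 10 windows of genes called lower and in 6 of 8 windows of genes not called. The 4 matched members with the lowest p are shown on their own strand, with CCAAT or its complement in capitals, for HMGCS1 (minus strand, chr5:43313413-43313662), MSMO1 (plus strand, chr4:165327419-165327668), IDI1 (minus strand, chr10:1056705-1056954) and INSIG1 (plus strand, chr7:155297628-155297877).
HMGCS1: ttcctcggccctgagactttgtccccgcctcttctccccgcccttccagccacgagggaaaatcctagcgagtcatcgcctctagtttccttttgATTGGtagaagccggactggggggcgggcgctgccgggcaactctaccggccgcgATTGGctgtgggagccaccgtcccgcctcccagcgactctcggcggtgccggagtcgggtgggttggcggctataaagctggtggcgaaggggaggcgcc
MSMO1: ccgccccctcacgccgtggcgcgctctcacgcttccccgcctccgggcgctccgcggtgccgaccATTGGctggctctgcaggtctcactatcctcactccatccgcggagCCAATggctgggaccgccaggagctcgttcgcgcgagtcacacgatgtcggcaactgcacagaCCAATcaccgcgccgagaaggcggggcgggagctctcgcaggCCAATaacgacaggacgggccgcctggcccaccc
IDI1: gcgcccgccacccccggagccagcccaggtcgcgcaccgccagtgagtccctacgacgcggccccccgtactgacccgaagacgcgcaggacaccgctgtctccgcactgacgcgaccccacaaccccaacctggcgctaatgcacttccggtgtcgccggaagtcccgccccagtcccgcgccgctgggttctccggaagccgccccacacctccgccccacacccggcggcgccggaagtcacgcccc
INSIG1: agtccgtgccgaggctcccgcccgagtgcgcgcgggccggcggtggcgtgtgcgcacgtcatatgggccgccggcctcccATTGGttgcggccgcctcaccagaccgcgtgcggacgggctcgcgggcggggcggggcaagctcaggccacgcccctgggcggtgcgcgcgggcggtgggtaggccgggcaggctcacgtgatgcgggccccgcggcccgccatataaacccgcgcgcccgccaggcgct
HMGCS1 held 2 matches, MSMO1 4, IDI1 0 and INSIG1 1, so that falls occurred with and without these letters in the window, and a missing match says only that the letters are not in it.

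Targets of the other regulators on chromosome 22 were mostly not called. Of 23 XBP1 targets outside chromosome 22, 0 were called by edgeR (median 0.0542, with 4 higher and 1 lower at an unadjusted p under 0.05), and CRELD2, which lies on chromosome 22 itself, was lower (−0.67, edgeR adjusted p = 7.41e-05). Of 28 ATF4 targets, 4 were higher and 0 lower in clone A2, while the ATF4 transcript was lower, and off chromosome 22 2.05% of all genes were higher and 2.38% lower. The amino acid transporter subunits SLC3A2 and SLC7A5 rose by 0.26 and 0.24, the stress sensor gene SESN2 by 0.28 and SHMT2 of mitochondrial one-carbon metabolism by 0.27. The count was 1 without clone A2 of experiment 15 and 2 without any 1 of the other 3 clone libraries. With all 10 libraries it was 0, and SLC7A5 was at −0.00312.

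Spheroids can hold a poorly oxygenated core, and hypoxia and glycolysis genes were listed for this reason. Of 35 genes, 6 were lower and 0 higher, with a median of −0.0524, against 2.38% lower among all genes off chromosome 22. With all 10 libraries 0 were lower. The glucose transporter gene SLC2A3 had 32.2 and 26.0 CPM in clone A1 and 16.9 and 17.4 CPM in clone A2 (−0.77, edgeR adjusted p = 9.27e-05). The lactate exporter gene SLC16A3 had 2.47 and 2.13 CPM against 0.426 and 0.664 CPM (−2.06, edgeR adjusted p = 0.000192). NDRG1 (−0.47) and the collagen prolyl hydroxylase gene P4HA1 (−0.34) were lower too. The 13 genes of the mitochondrial genome had a median of −0.393 with 3 called lower. ND2 had 16180 and 11720 CPM in clone A1 and 8702 and 7435 CPM in clone A2 (−0.79, edgeR adjusted p = 0.00479), and COX3 (−0.52) and ATP8 (−0.49) were lower as well. Mitochondrial genes took 13.9% of the counts in clone A1 of experiment 15 and 9.05% to 10.7% in the other 3 clone libraries, and without that library the list median was −0.196. The count of these genes called lower was 13 without clone A1 of experiment 16, 1 without clone A2 of experiment 16 and 1 with DESeq2.

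Genes of cell identity and matrix were called at single members, with 15% of the basal and mesenchymal, 5.56% of the luminal and 6.45% of the matrix list called, against 4.43% of all genes off chromosome 22. SPARC, a matricellular protein gene (chromosome 5 from 151661096 to 151686915), had 0.411 and 0.505 CPM in clone A1, 3.63 and 2.71 CPM in clone A2 and 7.21 and 7.10 CPM in WT (2.78, SE 0.242, edgeR adjusted p = 3.54e-06). SNAI2, a repressor of epithelial genes, had 7.15 and 6.56 CPM against 12.7 and 12.7 CPM, with 31.7 and 29.8 CPM in WT (0.88, SE 0.097, edgeR adjusted p = 3.06e-05). Both genes were thus below WT in both clones and lower in clone A1. SNAI2 reached 43.3 and 47.7 CPM in clone A1 of experiments 10 and 11, and its difference between the clones was −1.05 with all 10 libraries. FN1 (0.25) was the other of 3 genes higher among 20 basal and mesenchymal genes, the median of which was 0.00166. Among 18 luminal genes only TFAP2C was called (−0.50), and of 31 matrix and adhesion genes the collagen cross-linking enzyme gene LOX (−0.45) and COL6A2 (−0.27) were lower.

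Immune-related lists held up to 3 calls each. The share called was 12.5% for the NF-kB list, 12.5% for nucleic acid sensing and 8.33% for interferon-stimulated genes, against 6.16% over all genes and 4.43% off chromosome 22, and each of these counts was 0 with all 10 libraries. Calls in the NF-kB list were 1 without either clone library of experiment 15, and interferon-stimulated genes had 1 without clone A2 of experiment 16. In the NF-kB list LTBR and TRAF1 (−0.47) were lower and NFKB2 (0.28) higher among 24 genes, and the 2 calls among 16 nucleic acid sensing genes were SAMHD1 itself and STING1. The latter, the adaptor of cytosolic DNA sensing, was lower (24.5 and 23.8 CPM in clone A1, 17.2 and 17.8 CPM in clone A2, −0.47, edgeR adjusted p = 0.00188). Of 36 interferon-stimulated genes SAMD9 was higher (0.46) and IFITM2 (−0.32) and USP18 (−0.64), which lies on chromosome 22, were lower, and 0 of 17 genes of MHC class I presentation were called by edgeR, DESeq2 or limma-trend (median 0.00129). At an unadjusted p under 0.05, 3 of these 17 were higher. Of 22 estrogen receptor targets CXCL12 (−0.71) and XBP1 were lower and IGFBP4 (0.80) higher, and with all 10 libraries CXCL12 was at 0.00478.

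Growth and housekeeping lists had medians within 0.1 of 0, apart from the 3 metallothionein genes (−0.351), and the share called was 7.89% for glutathione and thioredoxin genes, 9.09% for protocadherins, 5.88% for chaperones, 4.05% for splicing factors and at most 3.85% for the other lists of this group with more than 4 genes, against 6.16% over all genes and 4.43% off chromosome 22. By edgeR, 0 of 50 DNA repair genes off chromosome 22 (median 0.0126) were called, with 7 higher and 2 lower at an unadjusted p under 0.05 and 0 called by DESeq2. Of 30 immediate early genes (median −0.0547) edgeR called 0 and DESeq2 called 1 higher, with 4 higher and 3 lower at an unadjusted p under 0.05. Of 55 cell cycle genes, the inhibitor gene CDKN2C (−0.24) was lower. Of 73 nuclear genes of oxidative phosphorylation NDUFB5 was lower (−0.30), and of 84 cytosolic ribosomal protein genes RPL22L1 (−0.79) and RPL3 were lower. At an unadjusted p under 0.05, 12 of these 84 were lower and 0 higher, and 57 were below 0 and 4 above 0 in both experiments. The count called was 11 without clone A1 of experiment 16 and 1 without any 1 of the other 3 clone libraries. Of 77 mitochondrial ribosomal protein genes MRPS7 was higher (0.22) and MRPL40 lower, and 0 of 4 keratin genes passed by edgeR, DESeq2 or at an unadjusted p under 0.05. Of 74 splicing factors SF3B3 (0.38) and SNRNP200 (0.21) were higher and RBM5 (−0.23) lower. The heat shock genes HSPA1A and HSPA1B, near-identical copies whose reads cannot be assigned with certainty, were both higher by 0.42. GSTP1 (−0.27), GSTA4 (−0.30) and TXNIP (−0.30) were lower among 38 glutathione and thioredoxin genes. Of this list 0 were lower without clone A1 of experiment 15, 5 without clone A1 of experiment 16, and 1 without either A2 library. The histone gene H2AJ (−0.75) and the metallothionein gene MT1X (−0.53) were lower, and the clustered protocadherins PCDHGA7 (0.61), PCDHGA2 (1.59) and PCDHGA9 (1.51), which share exons, were higher among 33 measured, with 0 higher without clone A1 of experiment 15 and 1 without either A2 library.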

How the data were processed

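RNA of day 4 spheroids was sequenced with a stranded mRNA kit. HISAT2 and the NCBI annotation of GRCh38 were used for alignment, and genes with a 0 in any library were dropped. The deposited file holds raw read counts per gene. The counting program is not given in the sources used here, and StringTie appears in the submitters' processing notes without a role. Of 13920 gene identifiers, 13885 matched the NCBI gene table.

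The fit (R 4.3.3, edgeR 4.0.16, TMM, robust) held WT, clone A1 and clone A2 of experiments 15 and 16 as 3 groups, WT adding to the estimate of spread. Log2 CPM had a prior count of 2, printed CPM were scaled over all 10 libraries, and regions of 20 Mb needed at least 20 genes. The clone libraries differed from each other beyond sampling noise, with chi-square values of 10.2 to 62.3 for each degree of freedom. The value was 25.2 between both A1 libraries and 10.2 between both A2 libraries. Between clones it was 44 and 62.3 for clone A1 of experiment 15, but 19.7 and 20.8 for clone A1 of experiment 16. On simulated data with 13920 genes, 68 of 100 changes of 0.5 and 91 of 100 changes of 1 (log2) were called, with 15 calls among 13402 unchanged genes, and a shift of −0.5 on chromosome 22 was measured as −0.499. Each gene was drawn independently with the spread estimated from these data. Deviations that many genes of 1 library share were not simulated, so the simulation does not give the rate of false calls in the real libraries.

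Members, lists and rules were chosen with earlier results of these data known. Named were SAMHD1, called genes of at least 2 CPM without overlap and with the largest change (12 in each direction off chromosome 22, 6 on it), the 10 most expressed genes of chromosome 22, 4 members of each list by lowest p, and 6 genes with opposite changes against WT. Other names were added after their values were seen, among them INSIG1, the chromosome 11 run and the promoter motifs. Some genes under this rule are not reported here. Alternatives were DESeq2 1.42.0, limma 3.58.1, RLE factors, TMM factors without chromosome 22, filters on low counts, other sets of libraries, removal of region medians, a replicate block, and each clone library left out. The block in the test between experiment pairs was chosen after the data were seen.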

Additional observations from a re-analysis of the deposited data

Results flagged for a closer look

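Effects of clone A1 against WT differed between experiments 15 and 16 and experiments 10 and 11 for several genes that separate the clones (edgeR interaction test over 8 libraries). The change was −1.81 for SAMHD1, −2.30 for LGALS8, −2.23 for SNAI2, −1.54 for ZNF700, −1.29 for CPS1 and −0.88 for TMEM200B. It was 0.60 for FBLN1, 1.16 for CXCL12, 1.20 for HSBP1L1, 2.70 for LTBR and 4.22 for RSPO4, the last resting on 4 and 2 counts in clone A1 of experiments 10 and 11, so that its size depends on the prior count. For these genes the difference between clones A2 and A1 holds for experiments 15 and 16, and its part in other experiments was not tested because clone A2 was sequenced in these only. In all, 266 of 13920 genes changed in this way, 2 of them on chromosome 22.

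Single libraries stood apart in 5 of 127 groups of 4 libraries examined with Dixon's criterion, which chance alone reaches in about 1 of 20 groups. PLA2G4B had 9.16 CPM in clone A1 of experiment 10 and 3.45 CPM in WT of experiment 11, against at most 0.196 CPM in the other libraries of these groups. ZNF20 had 3.05 CPM in clone A1 of experiment 11 and IDI1 139 CPM in clone A1 of experiment 10, neither of which entered the comparison of the clones. CSNK1E had 274 CPM in clone A1 of experiment 16, within 4 CPM of the others.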

How the results depend on the processing

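The median of chromosome 22 genes lay between −0.479 and −0.537 under the other alternatives, was 0.00903 after removal of region medians, which sets it near 0 by construction, and was −0.437 when clone A1 of experiments 10 and 11 took the place of experiments 15 and 16, each clone being set against WT of its own experiments. Leaving out a clone library gave −0.535 to −0.479 for this median, 210 to 240 called genes on chromosome 22, 281 to 558 off it and 497 to 798 in all. DESeq2, limma-trend, RLE factors, both filters and the 4 clone libraries alone kept these counts within 1.5 times. TMM factors from genes off chromosome 22 moved the share of higher calls from 32.5% to 29.7%. With all 10 libraries in 3 groups, where both experiment pairs of clone A1 count as 1 group, 216 genes were called, 142 on chromosome 22 and 74 off it. List members called off chromosome 22 were then 15 in place of 99, sterol genes lower 7 in place of 16, and ZNF genes 3 higher and 3 lower; hypoxia genes lower and ATF4 targets higher were both 0, and ZNF700 (−0.16), SLC7A5 (−0.00312), SNAI2 (−1.05) and CXCL12 (0.00478) reversed. Leaving out 1 library gave 60 to 107 list members, 1 to 2 ATF4 targets, 15 to 18 ZNF genes higher and 4 to 7 lower. GNB1L, which was not called, turned to 0.122 without clone A1 of experiment 16. Of 116 called genes named in the text, 71 lost the call with all 10 libraries, the 4 reversed genes included, 21 without clone A1 of experiment 15, 8 without clone A1 of experiment 16, 22 without clone A2 of experiment 15, 20 without clone A2 of experiment 16 and 6 with DESeq2. In regions of 10 Mb, 5 were shifted, all on chromosome 22.

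Deviations of same-numbered libraries correlated at 0.103 (A1 and A2), 0.134 (A1 and WT) and 0.151 (A2 and WT). The labels do not say that an experiment number marks a shared day or batch, and with 2 experiments a correlation cannot settle it, so the numbers were not taken as pairs. With the experiment as a replicate block 1947 genes were called, 1675 off chromosome 22 and 272 on it. The block gave 226 list members, 12 hypoxia genes lower, and 47 ZNF genes higher and 12 lower. Sterol genes lower were 18 and cytosolic ribosomal protein genes lower 16, ATF4 targets were 6 higher and 2 lower, XBP1 targets (all 25) 3 higher and 2 lower, DNA repair genes were 5 higher and 2 lower, MHC class I genes 2 higher, and nuclear oxidative phosphorylation genes 4 higher and 6 lower. The SAMHD1 change between experiment pairs was −1.80 with the block. The cause of these differences was not tested. With 2 libraries a clone, genes under about 15 CPM carried the largest errors, and a missed call there does not show equal levels.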
